A study of Lactuca sativa with 18 samples.

Results

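The 150 genes described here are those whose RNA rose most from day 0 to day 3 in cut midribs of all 3 romaine lettuce (Lactuca sativa) cultivars studied. They were chosen from 46150 GeneIDs with CPM, the counts of a gene scaled to a common column total. For each cultivar the highest day 0 value of log2(CPM + 1) was subtracted from the lowest day 3 value, and the smallest of the 3 differences was the gene's score. The 150 highest scores made the set. The rise from day 0 to day 3 is therefore what chose the genes. It is given below as a description, with no test.

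TG is Tall Guzmaine, a cultivar of high browning, and PC is Parris Island Cos, of low browning; CL is Clemente, which is intermediate and was bred from these parents. Each browning class is 1 cultivar, so browning and cultivar cannot be told apart. Every sample was midrib tissue from harvested, cooled and trucked heads, cut by hand into short pieces and kept at 5 °C until it was frozen. Total RNA of 2 samples per cultivar and day was sequenced, and the labels do not say whether these came from separate heads, so that spreads and p-values may be partly technical. No uncut midrib was among the samples, so cutting, cold and time since harvest cannot be told apart. The 12 libraries of day 0 and day 3 held 35603537 to 59153901 counts. The deposited day 2 values were not used. Nearly all of those checked, the more abundant ones, could be computed from day 0 and day 3. Most rows were too low for this check.

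Cutting a lettuce leaf breaks cells, mixes phenolic compounds with the oxidases that turn them brown, and starts a wound response in the tissue around the cut in which many genes are switched on. Cold storage and the ageing of a detached leaf bring gene programmes of their own. The names used here for the genes are locus symbols without a product, so no role is given to any of the 150. Of them, 147 are annotated in RefSeq (Lsat_Salinas_v11) as protein-coding, 2 (LOC111921165 and LOC111880079) as long noncoding RNA, and 1 (LOC111891084) as a pseudogene.

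The median gene of the set was low on day 0 and high on day 3. The rule asks for a large rise in every cultivar, which favours genes low on day 0 and high on day 3. These levels are therefore partly a result of the choice. Levels are CPM on library sizes scaled by the TMM method (trimmed mean of M values). The median gene of the set stood at 1.77 and 3.07 CPM in the TG libraries on day 0, at 1.07 and 0.771 CPM in PC and at 1.63 and 1.61 CPM in CL. On day 3 it stood at 52.0 and 44.4 CPM in TG, 47.1 and 49.0 CPM in PC and 50.1 and 52.1 CPM in CL. The median tested gene stood at 5.97 to 7.09 CPM in the day 0 libraries and at 7.29 to 7.56 CPM in those of day 3. Not every gene of the set lay on the same side of it, and on day 0 98 of the 150 were below it in both TG libraries, 114 in both PC libraries and 104 in both CL libraries. On day 3 these numbers were 2, 4 and 3. Together the 150 genes held 0.0932% to 0.358% of the counts of a day 0 library and 2.60% to 3.82% of the counts of a day 3 library. In bulk tissue, fewer cells of a type and less RNA per cell cannot be told apart.

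**Figure D1:**
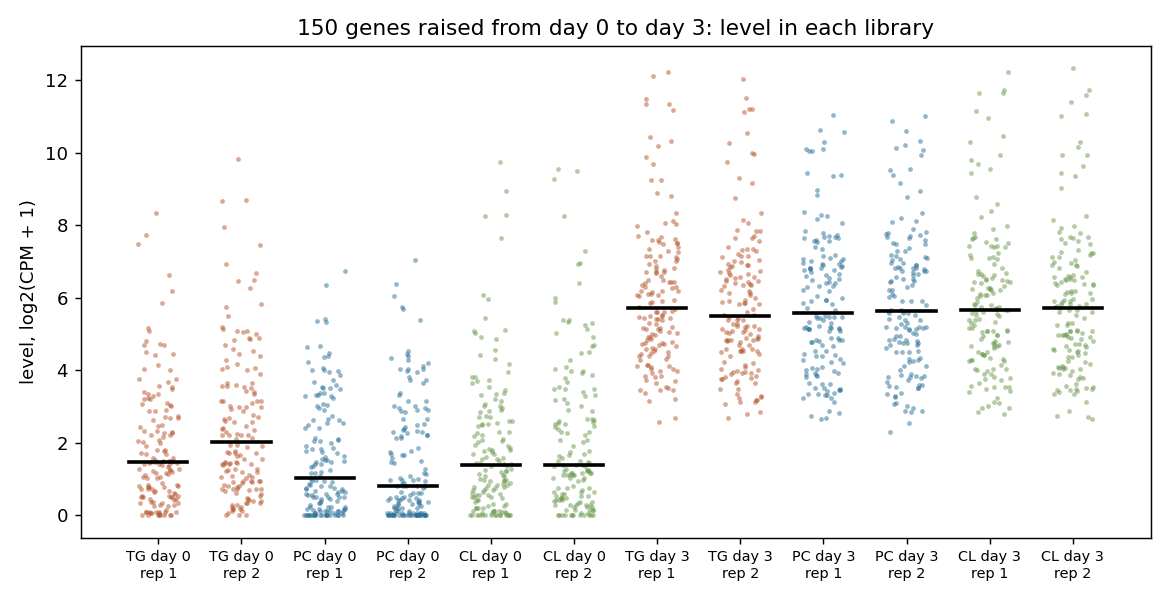
Level of each of the 150 genes in each of the 12 libraries, as log2(CPM + 1); each point is a gene and each black bar is the median gene. The medians lie between 0.771 and 3.07 CPM on day 0 and between 44.4 and 52.1 CPM on day 3, with PC lowest on day 0.

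The size of the rise differed among the genes and among the cultivars. The ratio of the day 3 to the day 0 mean ranged in TG from 5.57 to 459.7 (LOC111897754), among genes with more than 3 day 0 counts. In PC it ranged from 5.91 to 5418 (LOC111899847) and in CL from 4.41 to 1735 (LOC111881935), with the same limit. These upper ends rest on few day 0 counts. The TG value was 258 without TG day 0 replicate 1 and rests on 2 counts without replicate 2, and the PC value rests on 6 counts in all. The CL value was 868 without CL day 0 replicate 1 and at least 2749 without replicate 2. The median ratio was 16.0 in TG, 48.6 in PC and 25.2 in CL, with groups at 0 counts set to a floor of 3 counts per library. A ratio above 32 was found for 49 genes in TG, 85 in PC and 64 in CL. TG had the smallest of the 3 differences, and so set the score, for 90 genes, CL for 33 and PC for 27. These TG values hang on TG day 0 replicate 2. Without it the median TG ratio was 27.6, a ratio above 32 was found for 69 genes, TG set the score for 41, and 118 of the 150 genes stayed in the set. On day 0 both PC libraries held 0 counts for 18 of the 150 genes, against 5 genes in CL and 1 in TG. The fit over all 21757 tested genes called 5.73% of them higher on day 3 in all 3 cultivars (adjusted p under 0.05 in each). In either direction 27.4% of tested genes passed in TG, 39.6% in PC and 32.0% in CL. All 150 genes passed the filter on low counts and were called higher in each cultivar, which says nothing about them, since the rule used this contrast.

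LOC111897754 had the highest score, 5.74. It stood at 0.0381 and 0.313 CPM in the TG libraries on day 0 and at 66.8 and 94.7 CPM on day 3. In PC there were 2 counts on day 0, both in replicate 1, and 113 and 101 CPM on day 3. In CL it went from 1.01 and 0.976 to 168 and 181 CPM. CL was the highest cultivar on both days, and its 2 libraries did not overlap those of TG or PC.

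LOC111921008 came next, with a score of 5.70. Its TG libraries stood at 1.71 and 1.75 CPM on day 0 and at 178 and 131 CPM on day 3. PC had 0 counts on day 0 and 109.9 and 113 CPM on day 3, a rise of at least 1570.3-fold against a floor of 3 counts per library. CL went from 0.435 and 1.32 to 168 and 130.4 CPM. The cultivars were thus apart on day 0 and close on day 3, with PC lowest on both days.

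LOC111899847 reached a much higher level. In TG it rose from 8.28 and 23.0 to 952 and 999 CPM, 62.3-fold, and in CL from 3.12 and 12.9 to 751 and 697 CPM, 90.3-fold. In PC it stood at 0.0927 and 0.0482 CPM on day 0, 6 counts in all, and at 327 and 437 CPM on day 3. PC lay below both other cultivars on each day without overlap.

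LOC111914737 was not lowest in PC. It rose 89.6-fold in TG from 0.799 and 2.28 to 128 and 148 CPM. The PC libraries went from 2.04 and 2.65 to 205 and 183 CPM, 82.6-fold, and the CL libraries from 0.870 and 0.574 to 122 and 144 CPM, 184-fold. PC was the highest cultivar on day 3, without overlap, and overlapped TG on day 0.

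LOC111890702, the fifth gene by score, was lowest in TG on day 0. TG held 2 counts in all, PC stood at 1.30 and 1.06 CPM and CL at 0.483 and 0.287 CPM. On day 3 TG reached 42.4 and 45.0 CPM, PC 97.1 and 112 CPM and CL 44.6 and 59.9 CPM. PC was highest on both days, with no overlap.

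LOC111900479 stood between 1.11 and 2.13 CPM in all 6 day 0 libraries. On day 3 it was at 182 and 143 CPM in TG, 97.7 and 90.5 CPM in PC and 137 and 81.6 CPM in CL, where CL overlapped PC. LOC111878096 reached 71.9 and 121 CPM in TG and 120.0 and 109.5 CPM in PC but 24.3 and 32.8 CPM in CL on day 3, from at most 2.10 CPM on day 0. LOC111912424 was likewise lowest in CL, with 0 counts on day 0 and 18.1 and 17.7 CPM on day 3. In PC it went from 0.417 and 0.337 to 59.4 and 49.2 CPM, while the TG libraries went from 0.190 and 0.269 to 29.5 and 21.9 CPM.

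Others among the 20 of highest score follow, apart from LOC111898308 and those with close neighbours in the set, which are given further on. LOC111910617 rose 36.9-fold in TG, 26.7-fold in PC and 41.1-fold in CL, and LOC111897400 rose 46.7-fold, 43.1-fold and 29.5-fold. LOC111886796 was below 1 CPM in every day 0 library and at 30.1 to 44.1 CPM on day 3. LOC111882280 went from 0.647 to 5.17 CPM over the day 0 libraries to 65.5 to 93.8 CPM on day 3. LOC111877819 was more abundant throughout, at 6.84 to 41.0 CPM on day 0 and at 654 to 1271 CPM on day 3, and PC was lowest on both days without overlap.

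**Figure D2:**
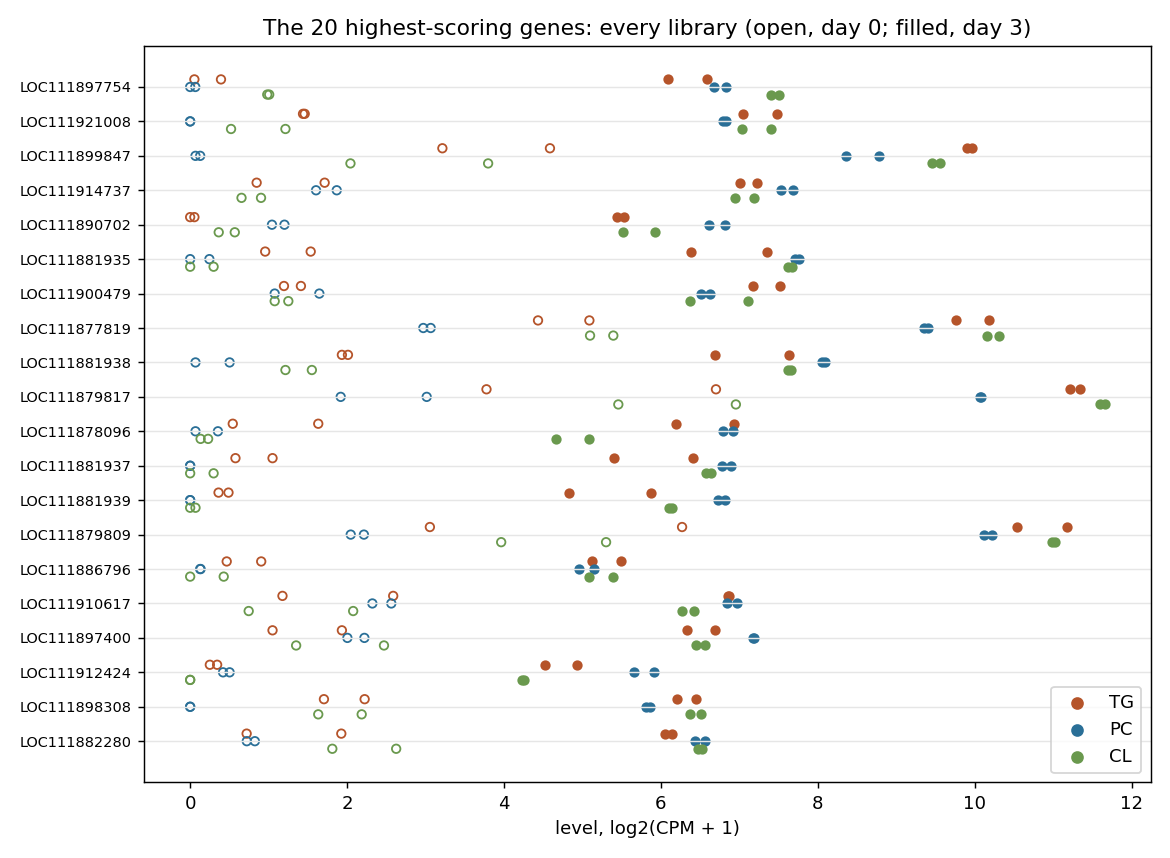
The 20 genes of highest score, 1 row each, with the level in every library as log2(CPM + 1); open circles are day 0, filled circles day 3, and colours mark the cultivars. Day 3 lies to the right of day 0 in each cultivar by the choice of the genes; the spread of the open circles within a row is wider than that of the filled circles for genes such as LOC111899847.

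Near the cutoff the rise was smaller. LOC111901267 and LOC111896419, the last inside, had scores of 2.18 and 2.17. LOC111895743 and LOC111885448, the first outside, had scores of 2.17 each. LOC111901267 went from 3.24 and 1.61 to 22.3 and 16.9 CPM in TG, and LOC111895743 from 1.56 and 3.76 to 19.4 and 21.4 CPM.

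A few abundant genes carried much of the RNA of the set. The 5 genes with the highest mean level on day 3 made up 43.0% of the summed day 3 CPM of the 150 over all cultivars, 46.6% in TG, 31.1% in PC and 47.7% in CL. They were LOC111901914, LOC111879796, LOC111899782, LOC111879817 and LOC111920419. On day 0 these 5 held 55.4% of the summed CPM in TG and 67.7% in CL but 25.2% in PC.

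LOC111901914 had the highest day 3 mean over the 3 cultivars, though in PC it was below LOC111879796, LOC111899782 and LOC111920419. It was already at 323 and 903 CPM in TG and at 859.6 and 726 CPM in CL on day 0, and at 7.14 and 1.20 CPM in PC. On day 3 it stood at 4856 and 4195 CPM in TG, 1095 and 1121 CPM in PC and 4857 and 5165 CPM in CL. The rise was 7.38-fold in TG, 266-fold in PC and 6.32-fold in CL, and PC remained below the others without overlap.

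LOC111879796 was at 98.2 and 405 CPM in TG, 8.88 and 3.95 CPM in PC and 308 and 759 CPM in CL on day 0. It reached 4442 and 2950.2 CPM in TG, 2134 and 2068 CPM in PC and 3203 and 3412 CPM in CL. LOC111899782 went from 213 and 247 to 2845 and 2392 CPM in TG, from 81.3 and 82.7 to 1592 and 1876 CPM in PC, and from 497 and 623 to 3416 and 2719 CPM in CL. For both genes PC was the lowest cultivar on both days, without overlap. LOC111920419 stood at 107 and 132 CPM in PC on day 0, and its rise of 8.11-fold in TG, 13.0-fold in PC and 7.24-fold in CL was the most even of the 5.

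TG and PC are the cultivars of high and low browning. The rule did not compare cultivars, but it read the same libraries and required day 3 values well above the day 0 values in each cultivar. On day 0, 66 of the 150 genes were higher in TG and 11 lower (edgeR quasi-likelihood test, Benjamini-Hochberg adjusted p under 0.05), while 17.2% of all 21757 tested genes were higher and 13.1% lower, 30.4% together. These shares of the set come to 44.0% and 7.33%. The other 73 genes did not pass. The median log2 difference of the set was 1.39 in the fit, 0.97 with the floor in place of 0 counts, and 0.00 over all tested genes. For fits without a library the share of all tested genes called is not given. Their counts, here and below, cannot be set against the shares of the full fit. The split was 47 higher and 27 lower without TG day 0 replicate 2. Leaving out PC day 0 replicate 2 gave 45 higher and 6 lower.

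The day 0 genes of largest fitted difference were those with no counts in PC. LOC111898308 stood at 2.26 and 3.67 CPM in TG on day 0, at least 41.9-fold above the 0 counts of PC (adjusted p = 7.42e-05, edgeR). LOC111908630 stood at 1.60 and 3.63 CPM, at least 36.8-fold above PC (adjusted p = 0.00784), and LOC111908629 at 1.41 and 1.92 CPM, at least 23.5-fold (adjusted p = 0.00386). LOC111921008, given above, was at least 24.4-fold higher (adjusted p = 0.000348). These lower bounds on the fold cover counting error only, and they are too high if both mates of a read pair were counted. All 4 differences passed under each of 17 alternatives, with adjusted p up to 0.0476 for LOC111908630.

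In the other direction LOC111890702 was lower in TG, where it had 2 counts on day 0 (log2 difference -5.67, SE 0.53, adjusted p = 0.000117, edgeR). This value was -8.74 without TG day 0 replicate 1, which held both counts, and -4.86 without replicate 2. LOC111908269 was lower by a log2 difference of -2.31 (SE 0.30, adjusted p = 0.000493), at 1.26 and 0.627 CPM in TG and 4.64 and 4.79 CPM in PC. Without TG day 0 replicate 1 it was -2.90. LOC111914386 stood at 1.60 and 5.82 CPM in TG and 13.7 and 14.5 CPM in PC, and LOC111881968 at 0.723 and 0.336 CPM and 1.67 and 1.83 CPM. They passed with log2 differences of -1.93 (SE 0.52, adjusted p = 0.0205, edgeR) and -1.70 (SE 0.51, adjusted p = 0.0288). The first did not pass with no filter on low counts (adjusted p = 0.0674), without TG day 0 replicate 1 (-1.27, adjusted p = 0.0538) or PC day 0 replicate 2 (adjusted p = 0.0688), and was -3.15 without TG day 0 replicate 2. The second did not pass without TG day 0 replicate 2 (adjusted p = 0.152), PC day 0 replicate 1 (adjusted p = 0.053) or PC day 0 replicate 2 (adjusted p = 0.0989), and was -2.37 without TG day 0 replicate 1.

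On day 3 the share called in edgeR was close to that over all tested genes. The DESeq2 and unadjusted shares, given below, were higher in the set than over all genes. LOC111897350 was higher in TG, at 31.0 and 36.7 CPM against 9.34 and 6.75 CPM in PC (log2 difference 2.07, SE 0.30, adjusted p = 0.00577, edgeR), and did not pass without PC day 3 replicate 2 (adjusted p = 0.0967). LOC111890702 was lower in TG (log2 difference -1.26, SE 0.25, adjusted p = 0.037), a call that ended without any 1 of the 6 day 3 libraries, with adjusted p of 0.0688 to 0.334. They were the only 2 of the 150 to pass on day 3, where 1.45% of all tested genes did, 0.722% higher and 0.731% lower. DESeq2 called 11 of the 150 (7.33%) and 3.68% of all genes to which it gave an adjusted p. In edgeR 34 (22.7%) had an unadjusted p under 0.05, against 11.2% of all tested genes. The count of 2 was 0 without PC day 3 replicate 2, 1 without PC day 3 replicate 1, TG day 3 replicate 2 or either CL day 3 library, 5 without either PC day 0 library and 7 without either TG day 0 library.

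**Figure D3:**
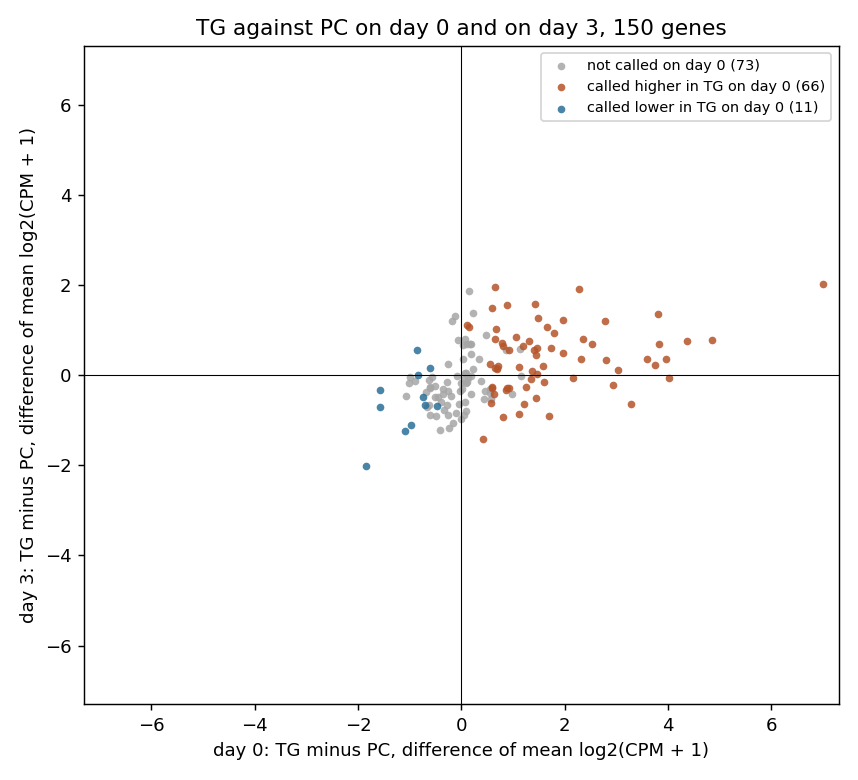
TG minus PC on day 0 (horizontal) and on day 3 (vertical) for each of the 150 genes, as the difference of mean log2(CPM + 1); colours mark the 66 genes called higher and the 11 called lower in TG on day 0, and grey the other 73. The points are spread more widely along the day 0 axis than along the day 3 axis. The rule chose genes whose day 3 values lay well above their day 0 values, so the spreads are not compared.

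Whether the change from day 0 to day 3 itself differed between TG and PC was tested as the difference of the 2 changes. The rule chose the genes on the change within each cultivar. Shares of the set and of all tested genes are therefore not on equal terms, and the counts only describe the set. The difference was called at adjusted p under 0.05. It passed for 38 of the 150 genes, 3 with a larger rise in TG and 35 with a larger rise in PC, while 4.76% and 7.43% of all tested genes passed in these directions (12.2% in either). LOC111898308 rose 26.8-fold in TG and at least 792-fold in PC, where it reached 57.2 and 55.1 CPM (adjusted p of the difference 0.00104, edgeR). LOC111881937 rose 80.3-fold in TG and at least 1604-fold in PC (adjusted p = 0.0134, and 0.0541 with no filter on low counts), and LOC111921008 rose 89.6-fold and at least 1570.3-fold (adjusted p = 0.00391). LOC111908629 rose 21.6-fold and at least 331-fold (adjusted p = 0.0264), a call that 9 of 17 alternatives ended, with adjusted p up to 0.0872. The 3 genes with a larger rise in TG were LOC111890702 (log2 difference 4.41, SE 0.65, adjusted p = 0.00378), LOC111908269 (1.96, SE 0.40, adjusted p = 0.0125) and LOC111897007 (0.84, SE 0.24, adjusted p = 0.0487, lost under 12 of 17 alternatives). LOC111890702 was at 7.48 without TG day 0 replicate 1 and 3.61 without replicate 2. LOC111908269 was at 2.56 without TG day 0 replicate 1, and did not pass without PC day 3 replicate 1 (adjusted p = 0.0538) or replicate 2 (adjusted p = 0.0559).

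The count of 38 depended on single libraries. Without TG day 0 replicate 2 it stayed at 38, with 12 genes rising more in TG and 26 more in PC. It was 20 without TG day 3 replicate 2, 23 without PC day 0 replicate 2, and 16 and 19 without PC day 3 replicate 1 or 2. In the split without TG day 0 replicate 2, as with all libraries, more genes rose more in PC than in TG. Splits of the other counts are not given.

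CL was compared with each parent, in tests that share the parents' libraries with the comparison above. Against PC on day 0, 61 of the 150 genes were higher in CL and 25 lower, with 23.8% and 21.9% of all tested genes called in these directions and 45.8% in either. The split depended on scaling, and without a scaling factor it was 50 and 36. LOC111913458 stood at 4.74 and 1.72 CPM in CL and at 0 counts in PC, at least 45.6-fold higher (adjusted p = 0.000359, edgeR). LOC111898308 was at least 39.8-fold higher in CL (adjusted p = 2.76e-05), and LOC111913845, at 1.21 and 0.574 CPM in CL, at least 12.6-fold (adjusted p = 0.000145). LOC111908630 was at 0.0483 and 1.78 CPM in CL (adjusted p = 0.0205), and did not pass with no filter on low counts (adjusted p = 0.0903) or without CL day 0 replicate 2 (adjusted p = 0.168), PC day 0 replicate 1 (adjusted p = 0.0682) or PC day 0 replicate 2 (adjusted p = 0.0815).

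Lower in CL than in PC on day 0 were LOC111912424, with 0 counts in CL and 0.417 and 0.337 CPM in PC, LOC111904544, LOC111882958 and LOC111896842. LOC111904544 stood at 0.193 and 0.460 CPM in CL against 6.49 and 9.44 CPM in PC (log2 difference -4.63, SE 0.70, adjusted p = 0.000639, edgeR), and at -5.34 without CL day 0 replicate 2. LOC111882958 stood at 0.145 and 0.258 against 2.53 and 3.93 CPM (log2 difference -4.01, SE 0.69, adjusted p = 0.00121). LOC111896842 stood at 6 counts in CL, all in replicate 1, against 1.02 and 0.963 CPM (log2 difference -3.63, SE 0.70, adjusted p = 0.00204). It was at -8.52 without CL day 0 replicate 1 and at -2.75 without replicate 2.

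Against TG on day 0, 18 of the 150 genes were higher in CL and 29 lower, where 10.2% and 10.9% of all tested genes passed, 21.1% together. Without CL day 0 replicate 1 the count of 47 fell to 30. The direction of this split rested on 1 library, since without TG day 0 replicate 2 it was 22 higher and 14 lower. Without a scaling factor it was 15 and 40. LOC111904670 was higher in CL, at 33.7 and 29.5 CPM against 1.98 and 0.895 CPM in TG (log2 difference 4.45, SE 0.50, adjusted p = 0.000675, edgeR), and at 5.14 without TG day 0 replicate 1. It stood at 0.0927 and 0.530 CPM in PC, so that CL lay above both parents without overlap. LOC111890702 was higher in CL than in TG too (log2 difference 4.08, SE 0.64, adjusted p = 0.00235, edgeR), at 7.15 without TG day 0 replicate 1 and 3.27 without replicate 2. LOC111913458 had 6 counts in TG, all in replicate 2 (log2 difference 5.63, SE 0.82, adjusted p = 0.00253). It was at 4.57 and 10.21 without TG day 0 replicate 1 or 2, and at 4.72 without CL day 0 replicate 1. LOC111909223 had 0 counts in both TG and PC on day 0 and 0.677 and 0.460 CPM in CL, at least 9.15-fold above TG (adjusted p = 0.0187). That call was lost without any 1 of the 4 libraries compared, with adjusted p of 0.0572 to 0.0942, and with no filter on low counts (adjusted p = 0.0519).

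LOC111912424, at 0 counts in CL on day 0, was at least 2.89-fold higher in TG (adjusted p = 0.00186, edgeR). LOC111904544 was also lower in CL than in TG, where it stood at 2.32 and 10.5 CPM (log2 difference -4.31, SE 0.70, adjusted p = 0.00332, edgeR). Without single libraries this was -2.86 (TG day 0 replicate 2), -5.04 (TG day 0 replicate 1) or -5.03 (CL day 0 replicate 2). LOC111910844 had 2 counts in CL on day 0 against 1.75 and 0.806 CPM in TG (log2 difference -5.47, SE 1.15, adjusted p = 0.0103), and did not pass without CL day 0 replicate 1 (-4.42, adjusted p = 0.0713). It was at -8.92 without CL day 0 replicate 2 and -4.80 without TG day 0 replicate 1. LOC111881935 had 8 counts in CL, all in replicate 2, against 1.90 and 0.940 CPM in TG (log2 difference -3.72, SE 0.92, adjusted p = 0.0195). It did not pass with no filter on low counts (adjusted p = 0.0704), without TG day 0 replicate 1 (-3.11, adjusted p = 0.105) or without CL day 0 replicate 1 (-2.63, adjusted p = 0.102), and was at -9.07 without CL day 0 replicate 2.

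On day 3, 0 of the 150 genes passed between CL and TG in edgeR, where 0.786% of all tested genes did. DESeq2 called 3 (2.00%), against 3.11% of all genes to which it gave an adjusted p. In edgeR 21 (14.0%) had an unadjusted p under 0.05, against 9.62% of all tested genes. The count of 0 was 2 without either TG day 0 library and 1 without CL day 0 replicate 2. Against PC 4 passed, 2 higher and 2 lower in CL, where 0.915% of all tested genes did, 0.515% higher and 0.400% lower. LOC111897821 stood at 53.0 and 72.6 CPM in CL and 9.02 and 10.8 CPM in PC (log2 difference 2.66, SE 0.43, adjusted p = 0.0179, edgeR), and LOC111897350 at 54.8 and 38.3 CPM in CL (log2 difference 2.53, SE 0.30, adjusted p = 0.00279). LOC111912424 (log2 difference -1.60, SE 0.22, adjusted p = 0.0119) and LOC111878619 (-0.86, SE 0.15, adjusted p = 0.0303) were lower in CL. LOC111897350 did not pass without PC day 3 replicate 2 (adjusted p = 0.0628), and the other 3 did not pass without any 1 of the 4 libraries compared, with adjusted p of 0.0756 to 0.375. The count of 4 was 0 without PC day 3 replicate 2, 1 without PC day 3 replicate 1 or either CL day 3 library, 8 without TG day 0 replicate 1 or either PC day 0 library, and 9 without TG day 0 replicate 2.

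CL and PC differed in their change over the 3 days for 46 of the 150 genes, 8 with a larger rise in CL and 38 with a larger rise in PC, against 10.6% and 13.2% of all tested genes (23.8% in either direction). Here too the rule had chosen the genes on these changes, so the counts only describe the set. Without a scaling factor the split was 15 and 31. Leaving out PC day 3 replicate 1 gave 28 genes, and leaving out CL day 3 replicate 2 gave 25. LOC111912424 rose at least 226-fold in CL and 144-fold in PC (adjusted p of the difference 0.00552, edgeR). It had 0 counts in CL on day 0, so the 226 rests on the floor of 3 counts per library. That bound is too high if both mates were counted, so these 2 ratios do not settle which cultivar rose more. LOC111904544 rose 229.7-fold and 15.9-fold (log2 difference 3.88, SE 0.87, adjusted p = 0.0125). The latter call was lost without CL day 0 replicate 1 (adjusted p = 0.0619), and its value was 4.59 without CL day 0 replicate 2. LOC111908269 rose 38.3-fold in CL and 5.91-fold in PC (log2 difference 2.68, SE 0.42, adjusted p = 0.00232).

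Between TG and CL the change differed for 6 of the 150 genes, 4 with a larger rise in TG and 2 with a smaller one, against 0.418% and 0.565% of all tested genes (0.984% in either direction). These counts too only describe the set, since the rule had chosen the genes on the changes. LOC111904670 rose 122-fold in TG and 8.30-fold in CL (log2 difference 3.86, SE 0.64, adjusted p = 0.0326, edgeR; 4.55 without TG day 0 replicate 1), and LOC111914738 rose 178-fold and 22.6-fold (2.97, SE 0.56, adjusted p = 0.042). LOC111878630 rose less in TG, 9.37-fold against 36.7-fold (-1.97, SE 0.31, adjusted p = 0.0253). This count was 0 without TG day 3 replicate 1, CL day 0 replicate 1, or either PC or CL day 3 library, 1 when TG day 3 replicate 2 was left out and 2 when TG day 0 replicate 2 was. Leaving out TG day 0 replicate 1 gave 20, and leaving out PC day 0 replicate 1 or 2 gave 14 or 15. With DESeq2 it was 22 (14.7%), against 7.10% of all genes to which DESeq2 gave an adjusted p. Without a scaling factor it was 10, of which 4 had a larger rise in TG.

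Seen without any test, PC was the lowest cultivar by mean on day 0 for 86 of the 150 genes, CL for 50 and TG for 14, where the shares over all tested genes were 38.7%, 37.5% and 23.8%. Both PC libraries lay below the other 4 day 0 libraries for 49 genes, and this was so for 23.9% of all tested genes. TG was above the other 4 without overlap for 29 genes on day 0, against 10.6% of all tested genes, and below them for 5, against 8.01%. Leaving out TG day 0 replicate 1 gave 70 genes with TG above, among 4359 of the 21757 tested genes, and leaving out replicate 2 gave 31 among 3878. Such counts can only stay or rise when a library is left out. CL was below without overlap for 18 genes (20.1% of all tested genes) and above for 21 (20.4%), and PC above for 17 (24.4%). On day 3 the order was mixed. PC was lowest by mean for 64 genes and highest for 62 (33.8% and 35.5% of all tested genes), without overlap for 35 and 44, where the shares over all tested genes were 12.1% and 12.8%. TG was lowest without overlap for 22 genes (10.8%) and highest for 21 (11.0%), and CL lowest for 30 (10.8%) and highest for 26 (12.3%).

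The 2 day 0 libraries of TG were themselves apart in this set. Replicate 2 was above replicate 1 for 124 of the 150 genes, with a median log2(CPM + 1) difference of 0.57, while 51.3% of all tested genes were higher in replicate 2 and the median over these was 0.01. The 2 libraries were more than 2-fold apart, on the CPM + 1 scale, for 46 genes. LOC111879817 stood at 12.7 CPM in replicate 1 and 103 CPM in replicate 2, and LOC111879809 at 7.31 and 76.1 CPM. The corresponding number higher in replicate 2 was 88 in CL and 58 in PC on day 0, and 47 in TG, 85 in PC and 74 in CL on day 3. No gene of the set was more than 2-fold apart between the day 3 libraries of PC or of CL, and 12 were in TG. On day 0, 31 were in CL and 11 in PC.

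**Figure D4:**
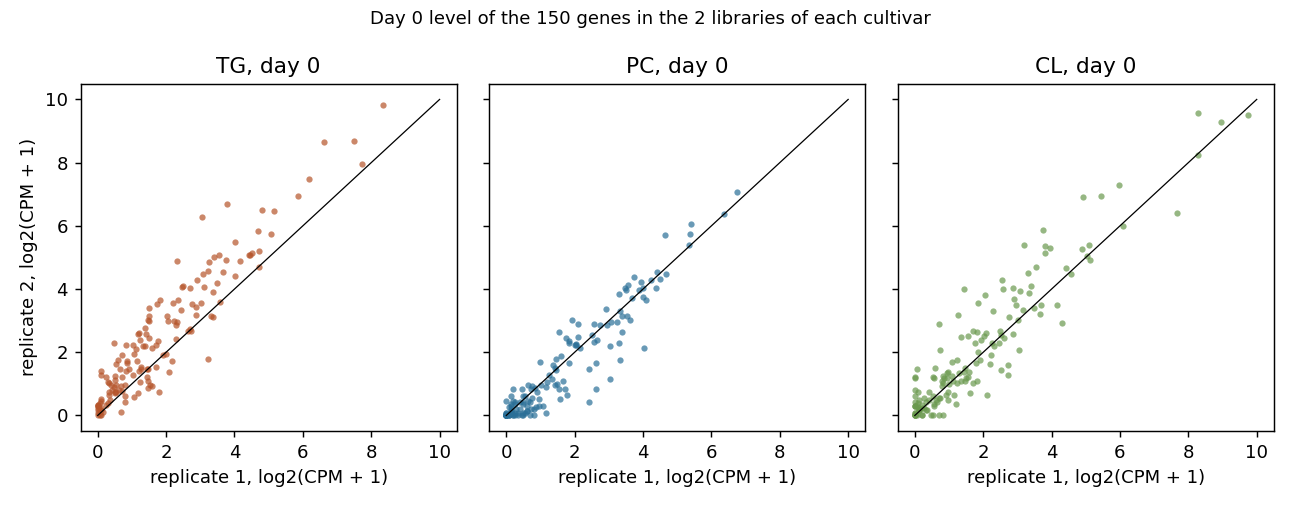
Day 0 level of the 150 genes in replicate 1 (horizontal) and replicate 2 (vertical) of each cultivar, as log2(CPM + 1), with the line of equal levels. In TG 124 of the 150 genes lie above the line, against 58 in PC and 88 in CL.

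Some of the 150 genes are neighbours in the genome. In the gene order of the RefSeq annotation of Lsat_Salinas_v11, which may not be the build the counts were made on, 23 genes of the set lay within 5 places of another one, in 10 groups. The largest group held LOC111881939, LOC111881935, LOC111881937 and LOC111881938, all among the 20 of highest score, within 11 consecutive annotated genes. LOC111881935 rose from 1.90 and 0.940 to 162 and 82.2 CPM in TG. The PC libraries, with 8 counts together on day 0, reached 208 and 216 CPM, and the CL libraries, also with 8, reached 196 and 203 CPM. LOC111881938 rose from 3.03 and 2.82 to 198 and 102 CPM in TG, from 0.417 and 0.0482 to 265 and 272 CPM in PC and from 1.93 and 1.32 to 201 and 195 CPM in CL. All 4 were highest in PC on day 3, without overlap, and stood in TG day 3 replicate 1 well above replicate 2.

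LOC111881937 reached 84.0 and 41.2 CPM in TG, 109 and 118 CPM in PC and 98.6 and 94.0 CPM in CL on day 3, and had 0 counts in PC on day 0. LOC111881939 reached 57.7 and 27.4 CPM in TG, 105 and 112 CPM in PC and 69.6 and 67.6 CPM in CL, and also had 0 counts in PC on day 0. Of the 7 annotated genes between these 4, 6 had a mean of 0 CPM in every group and 1, LOC128126637, was not analysed here. Neighbouring genes of one family can share reads, and the sources used here do not say how reads with several matches were counted, so the split among the 4 is uncertain.

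A second group held LOC111879817, LOC111879809 and LOC111879796, within 6 annotated genes. They were lowest in PC on both days. The first group was also lowest in PC by mean on day 0, on few counts, but not on day 3. On day 3 LOC111879817 stood at 2601 and 2372 CPM in TG, 1069 and 1084 CPM in PC and 3224 and 3101 CPM in CL, and LOC111879809 at 2319 and 1488 CPM in TG, 1112 and 1188 CPM in PC and 2014 and 2076 CPM in CL. All 3 also stood higher in TG day 0 replicate 2 than in replicate 1. Between them LOC111879811 was at a mean of 5.55 to 7.03 CPM on day 3, and 2 genes were at 0 CPM throughout.

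LOC111897754, the gene of highest score, lay 3 places from LOC111897821, and both were highest in CL on day 3. LOC111899847 lay 2 places from LOC111899899, which rose to 15.3 and 8.42 CPM in TG, 5.74 and 3.96 CPM in PC and 7.68 and 5.52 CPM in CL, and in this pair PC was lowest on both days by mean. Of 275 tested genes that flank the 150 and do not belong to them, 23 rose in all 3 cultivars, which is 8.36%, against 5.07% of all 21607 tested genes outside the set. This count was 15 without CL day 3 replicate 2. LOC111914736, chosen here after its values were seen, lies between LOC111914737 and LOC111914738 and its mean went from 2.95 CPM on day 0 to 20.9 CPM on day 3 in TG, while PC went from 0.986 to 56.4 CPM and CL from 0.260 to 17.8 CPM (adjusted p = 0.00849, 0.000276 and 0.00042, edgeR).

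**Figure D5:**
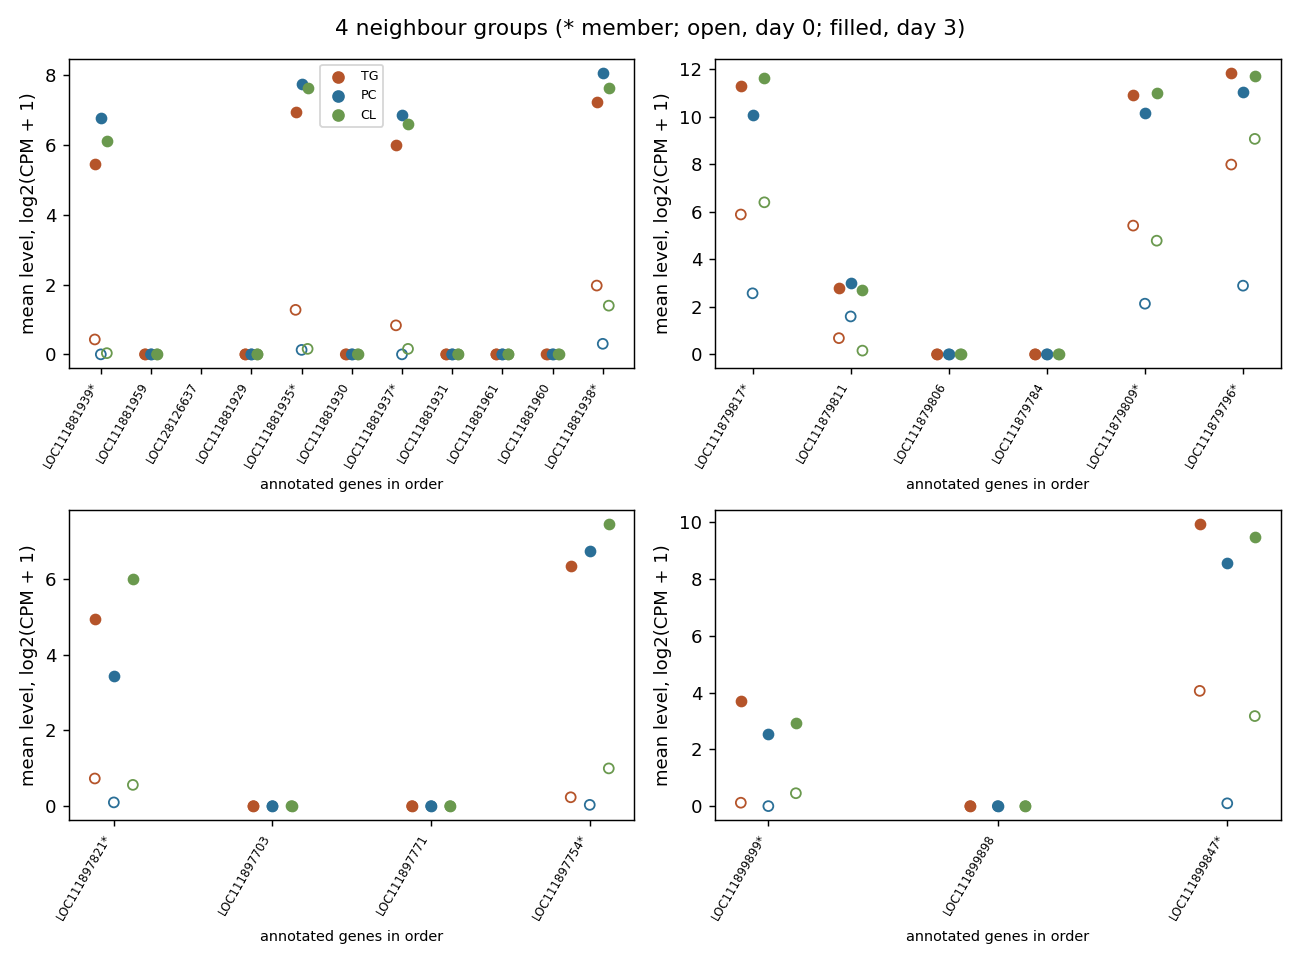
Mean level, as log2(CPM + 1), of the genes in 4 neighbour groups in annotated order, with genes of the set marked by an asterisk; open circles are day 0, filled circles day 3, and colours mark the cultivars. Genes between the marked ones lie at 0 apart from LOC111879811, and LOC128126637, not analysed here, has no point.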

How the data were processed

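Per the labels, midrib RNA of 3 cultivars was sequenced as paired-end reads. The authors deposited counts per GeneID, 64021 rows a library. Tools listed in the submitters' processing notes are featureCounts, STAR 2.4.0i, Trim Galore, FastQC, DESeq2 and R 3.6.1, without their roles; the sources used here do not give build, annotation or strand setting. From 68.4% to 74.6% of counts of 100 or more were even, as when both mates are counted. Rows were summed per GeneID; 7574 GeneIDs, 1 of the 150 among them, stood on several rows. The deposited day 2 values, taken as a score of the authors' making, were left out. A cut of 200 counts kept 13451 to 14690 rows a library for a check. Of these, 98.9% to 99.8% lay within 1 count of a scaled mean of day 0 and day 3. The factor and constant of that mean were set per library, and the other rows were not checked.

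In edgeR 4.0.16 (R 4.3.3) 21757 genes passed filterByExpr. TMM scaled the library sizes, and robust quasi-likelihood fits over 12 libraries took 1 mean per group, tested on simulated data first. Adjusted p-values are Benjamini-Hochberg over all tested genes, called under 0.05. SE is the log2 difference over the square root of F. Where a group is at 0 counts the fitted size hangs on the prior count, so a bound against 3 counts per library is given. DESeq2 1.42.0, other scalings, no filter, a replicate block and leaving out each library were tried.

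The 150 genes and the comparisons were chosen with earlier results of these data known. Genes named are the 20 of highest score, the 5 most abundant on day 3, those beside the cutoff, up to 4 called genes of largest difference per direction and comparison, and the 4 neighbour groups with most members or, in ties, the best rank. In the last comparisons some are named in the closing part. All 150 GeneIDs matched the RefSeq name table (Lsat_Salinas_v11), which gives no products. The planned lists of pathway and tissue marker genes, promoter motifs and protein likeness could therefore not be used, and the tissue label was not checked against markers.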

Additional observations from a re-analysis of the deposited data

Results flagged for a closer look

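The difference in change from day 0 to day 3 between cultivars passed for the named genes that follow (edgeR quasi-likelihood test of the difference itself, adjusted p under 0.05), and the values are fitted log2 differences. The rule had chosen the genes on the changes that these differences are made of. Between TG and PC they were 4.41 for LOC111890702, 1.96 for LOC111908269, 0.84 for LOC111897007, -9.58 for LOC111898308, -9.04 for LOC111881937, -8.83 for LOC111921008 and -8.64 for LOC111908629. The last 4 had 0 counts in PC on day 0, so these sizes depend on the prior count and are no bounds.

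Between CL and PC they were 5.52 for LOC111912424, 3.88 for LOC111904544, 3.29 for LOC111882958 and 2.68 for LOC111908269, and -9.41 for LOC111898308, -8.52 for LOC111913458, -7.89 for LOC111921008 and -7.88 for LOC111913845. LOC111912424 had 0 counts in CL on day 0, and the 4 genes with negative values had 0 counts in PC. LOC111882958 had an adjusted p of 0.0215 and did not pass under 6 of 17 alternatives (adjusted p up to 0.0964).

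Between TG and CL they were 3.86 for LOC111904670, 3.82 for LOC111890702, 2.97 for LOC111914738, 1.47 for LOC111897007, -5.88 for LOC111912424 and -1.97 for LOC111878630. Each of these 6 calls was lost under 7 to 10 of 17 alternatives, with adjusted p up to 0.138 to 0.19.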

How the results depend on the processing

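Of the 150 genes, 112 stayed in the set with a pseudocount of 5, 118 without TG day 0 replicate 2, 132 with means in place of extreme libraries, and at least 135 under the other alternatives run. No named gene's difference changed sign under any of the 17 alternatives to its fit. Scaling moved the median of all genes by over 0.1: without a factor, by -0.54 in CL against PC on day 0, -0.32 in CL against TG on day 0, -0.19 in TG against PC on day 0, -0.15 in CL against PC on day 3, 0.33 in the CL change, and 0.39 (CL minus PC), -0.23 (TG minus CL) and 0.15 (TG minus PC) in the differences in change. Between TG and CL the 6 differences in change became 10 without a scaling factor and 22 with DESeq2. The DESeq2 share was 14.7%, against 7.10% of all genes to which it gave an adjusted p. On day 3, DESeq2 called 11 genes between TG and PC, 15 between CL and PC and 3 between CL and TG.

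Leaving out each library in turn, the genes called ranged on day 0 from 51 to 78 (TG against PC), 30 to 52 (CL against TG) and 64 to 91 (CL against PC), and on day 3 from 0 to 7, 0 to 2 and 0 to 9. Differences in change ranged from 16 to 55 (TG minus PC), 25 to 57 (CL minus PC) and 0 to 20 (TG minus CL), day 3 against day 0 was at least 139 in each cultivar, and genes kept ranged from 118 to 147, genes with PC lowest on day 0 without overlap from 50 to 65 (49 with all libraries), and flanking genes from 15 to 26. Leaving out a library can only keep or raise a count without overlap. The range for PC lowest on day 0 is therefore no check on that count. A group left with 1 library was assumed to vary like the others. No share of all tested genes called is given for these fits, so their counts cannot be set against the shares of the full fit. The alternatives for the last pair of counts, and the TG ratios and score counts without a library, were added after the data were seen.

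With the replicate block, TG against PC on day 3 fell from 2 genes to 1, since LOC111890702 no longer passed (adjusted p = 0.0724, edgeR), and the other counts moved by less than 1.5 times. The block also ended the calls of LOC111878619 (CL against PC on day 3, adjusted p = 0.055) and, for differences in change, LOC111897007 (TG minus PC, 0.0575) and LOC111890702 (TG minus CL, 0.0545). Deviations of libraries with the same number correlated at -0.0778 to 0.0542 between groups. The labels give only the number, and whether such libraries shared a preparation was not tested. Levels of a few counts on day 0 limit the size of many rises, and 29 of the 150 genes had 0 counts in the shallowest library, PC day 0 replicate 2.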
